A study of Mus musculus with 18 samples.

Results

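Il33 and the family to which it belongs were followed through a time course of FGF6 treatment in mouse brown preadipocytes. The 8 genes were Il33, Il1rl1, Il1rap, Il1r1, Il1rn, Il1a, Il1b and Il18, taken by gene symbol from a count table of 48023 genes. Il33 was selected on its own difference between FGF6 and vehicle in these libraries, so its levels are given as a description without a test. The other 7 belong to the same family but are not all of it, and they were chosen with earlier results of these data known. The cells were an immortalized line made from the stromal vascular cells of mouse brown fat, so a single line and not tissue. They received vehicle (Veh) or FGF6, a secreted fibroblast growth factor, and total RNA was sequenced after 4, 8 or 24 h, with 3 libraries in each of the 6 groups. The labels name no genotype and no separate animals or cultures behind the 3 libraries of a group, so every p-value measures the spread between these libraries, which may be technical.

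IL-1 family cytokines signal through receptor pairs. IL-33 is a nuclear cytokine of stromal, endothelial and epithelial cells that is set free when cells are damaged. Outside the cell it binds ST2, the product of Il1rl1, which then recruits the shared partner chain encoded by Il1rap. IL-1α and IL-1β use the receptor encoded by Il1r1 with the same partner chain, and the antagonist encoded by Il1rn occupies that receptor without activating it. IL-18 has its own receptor pair. In fat, stromal cells are a known source of IL-33, which maintains regulatory T cells and innate lymphoid cells there, whereas the Il1rl1 gene can give rise to a membrane receptor or to a secreted decoy form. Counts per gene cannot separate those forms.

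In GRCm38 with GENCODE M21, Il33 lies on chr19:29925114-29960718 and Il1rl1 on chr1:40429570-40465415, both on the plus strand. Il1r1 lies on the chromosome of Il1rl1 at chr1:40225080-40317257, Il1rap on chr16:26581704-26730117, Il1rn on chr2:24336853-24351494, Il1a on chr2:129299610-129309972, Il1b on chr2:129364570-129371139 and Il18 on chr9:50554827-50581840. Exons of Il33, Il1rl1, Il1r1, Il1rn and Il18 share no base with another annotated gene. Il1rap shares 552 exonic bases with Gm20319, Il1a 222 with Gm14023 and Il1b 25 with Il1bos, all on the opposite strand, and reads over those bases cannot be assigned to a strand here. The RefSeq promoter set (GRCm38.p6) held windows for all 8 genes, 13 start sites in all, and 2 each for Il33 and Il1rl1. The 250 bases before the starts of Il33 and its receptor subunits are shown because these were the members with the largest FGF6 effects. The windows cover chr19:29924863-29925112 before the outer start of Il33, which is intergenic, and chr19:29945540-29945789 before its inner start, which is intronic in Il33. For Il1rl1 they cover chr1:40429320-40429569, which is intergenic, and chr1:40439379-40439628, which is intronic except for its last 2 bases. For Il1rap the window is chr16:26581455-26581704. All are on the plus strand, 5′ to 3′, and capitals mark matches to the motifs searched.
Il33 outer start: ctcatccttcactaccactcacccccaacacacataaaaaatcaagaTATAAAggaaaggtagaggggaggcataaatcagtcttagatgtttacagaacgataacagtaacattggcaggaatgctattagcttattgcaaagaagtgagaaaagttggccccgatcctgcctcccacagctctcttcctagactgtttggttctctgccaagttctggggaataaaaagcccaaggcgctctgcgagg
Il33 inner start: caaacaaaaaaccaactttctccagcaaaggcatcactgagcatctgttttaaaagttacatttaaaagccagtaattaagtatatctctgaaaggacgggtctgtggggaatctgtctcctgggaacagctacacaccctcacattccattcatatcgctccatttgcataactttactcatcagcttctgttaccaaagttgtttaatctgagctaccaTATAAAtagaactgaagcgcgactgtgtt
Il1rl1 outer start: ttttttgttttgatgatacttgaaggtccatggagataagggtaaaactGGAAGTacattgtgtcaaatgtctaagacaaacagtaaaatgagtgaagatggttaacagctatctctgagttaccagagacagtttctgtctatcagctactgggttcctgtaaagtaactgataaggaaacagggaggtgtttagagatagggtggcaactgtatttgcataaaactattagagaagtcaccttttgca
Il1rl1 inner start: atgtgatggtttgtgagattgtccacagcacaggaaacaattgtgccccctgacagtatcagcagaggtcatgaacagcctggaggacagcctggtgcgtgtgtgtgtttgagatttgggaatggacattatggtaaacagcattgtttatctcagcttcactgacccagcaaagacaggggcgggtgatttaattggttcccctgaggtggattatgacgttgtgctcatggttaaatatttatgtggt
Il1rap start: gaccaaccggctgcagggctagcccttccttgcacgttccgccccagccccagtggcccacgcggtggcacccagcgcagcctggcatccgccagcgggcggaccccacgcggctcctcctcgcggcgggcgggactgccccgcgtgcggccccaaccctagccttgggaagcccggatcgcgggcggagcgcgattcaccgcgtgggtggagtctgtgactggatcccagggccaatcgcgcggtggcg

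The motifs, searched on both strands, were AP-1 (TGANTCA), CRE (TGACGTCA), the TATA box (TATAAA), ETS (GGAAGT), NF-kB and the CArG box. The TATA letters occurred once in each Il33 window, 203 to 198 bases before the outer start and 29 to 24 bases before the inner start. They occurred in 12.4% of all 32851 windows of this length. The outer window of Il1rl1 held 1 ETS match, 201 to 196 bases before the start, a motif found in 19.7% of all windows. The inner window of Il1rl1 and the window of Il1rap held no match to any of the 6 motifs. AP-1, CRE, NF-kB and CArG letters, present in 6.75%, 1.55%, 3.90% and 1.47% of all windows, were not found in these 5 windows. No 2 matches overlapped in them. Base composition differed between the promoters, with 74.4% G and C before Il1rap against 45.2% and 39.6% before the starts of Il33. A match describes letters only, and which start site was used cannot be read from gene counts.

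The libraries held 24327816 to 33471980 counts in genes, with normalization factors of 0.951 to 1.047. Of the 48023 genes, 15071 passed the filter on low counts, among them 7 of the 8 members (Il1b did not). Levels are CPM (the counts of a gene relative to the normalized library total), and 3 counts, the limit that a count of 0 allows, corresponded to 0.0905 to 0.126 CPM per library, counting error only. Markers were checked against the label. Among 14 preadipocyte and stromal markers, 13 were tested and Dlk1 stayed at or below 3 counts in every library. Their summed level was 5810 to 6189 CPM with Veh and 3551 to 3807 CPM with FGF6 at 4 h, 8194 to 8629 and 3921 to 4251 CPM at 8 h, and 8638 to 9211 and 1616 to 1751 CPM at 24 h. The markers did not all fall. At 24 h edgeR called 9 of the 13 lower and 3 higher, beside 37.9% and 35.9% of all genes. The 3 higher were Dcn, Cd34 and Lum, with log2 fold changes of 2.63, 1.38 and 0.59. Among 14 immune cell markers, 10 stayed at or below 3 counts in every library, including Ptprc (CD45), Adgre1, Itgam, Cd3e and Kit.

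Il33 itself was detected at a low level in vehicle-treated cells and at a far higher level with FGF6. At 4 h the Veh libraries held 61, 89 and 68 counts and the FGF6 libraries 716, 911 and 656 counts. The means were 2.33 ± 0.390 and 27.4 ± 1.43 CPM (SD, n = 3), a fitted fold of 11.7. At 8 h the Veh libraries held 27, 25 and 25 counts and the FGF6 libraries 1137, 1022 and 936 counts. Il33 was thus already higher with FGF6 at the first time point, and every FGF6 library was above every Veh library. At 8 h the means were 0.834 ± 0.0343 and 36.6 ± 2.08 CPM, a fold of 43.6. At 24 h the Veh libraries held 17, 20 and 16 counts and the FGF6 libraries 2864, 2730 and 2529 counts. The means were 0.624 ± 0.0425 and 98.3 ± 5.86 CPM, a fold of 157. On the log2 scale the difference was 3.55 at 4 h, 5.45 at 8 h and 7.30 at 24 h. Both arms contributed to that spread, since the Veh mean was lower at each later time and the FGF6 mean higher. The order of the 6 groups was FGF6 24 h, FGF6 8 h, FGF6 4 h, Veh 4 h, Veh 8 h and Veh 24 h, and no neighbouring groups in that order overlapped. By the log2 fold change, Il33 stood at place 18 at 4 h, 8 at 8 h and 3 at 24 h among the 12299 tested genes with a mean of at least 1 CPM. A high place follows from its selection on this contrast, and its Veh means at 8 h and 24 h were under 1 CPM. From bulk RNA, more cells with Il33 and more Il33 RNA per cell cannot be told apart.

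**Figure D1:**
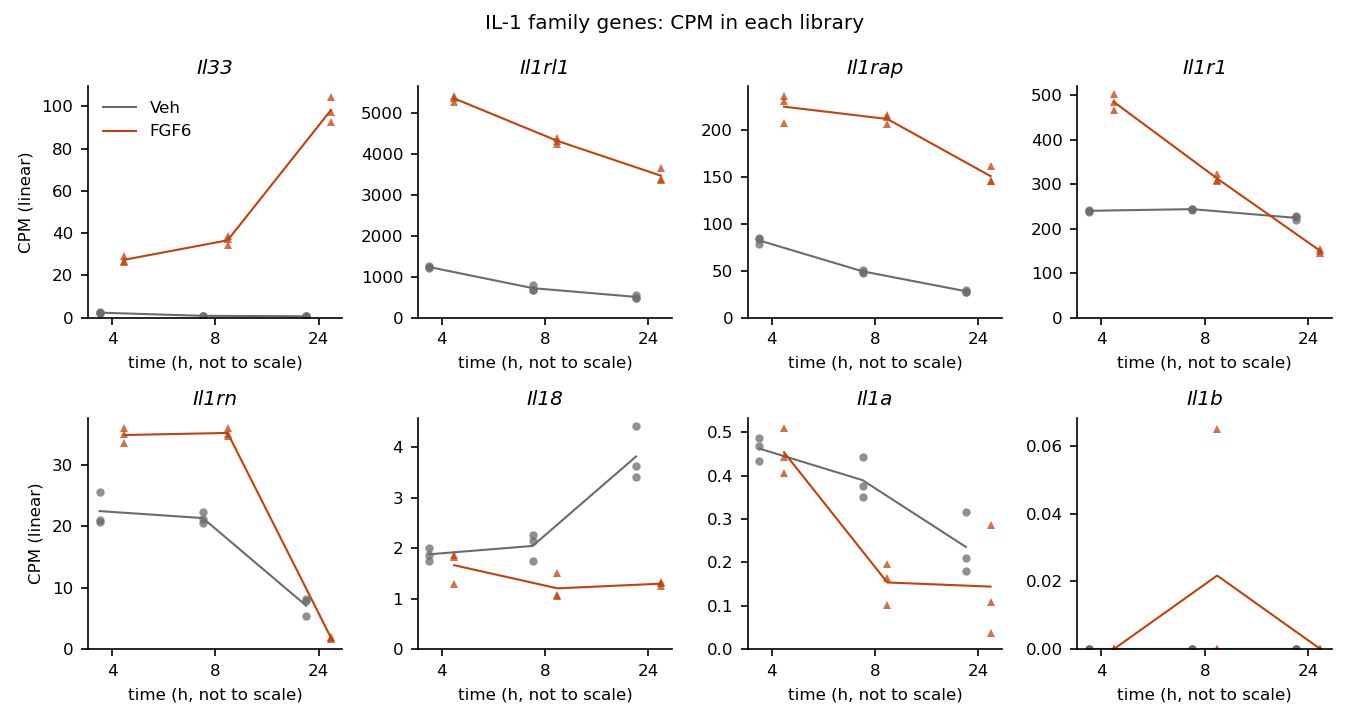
Level of each of the 8 genes in CPM (linear axes that differ between panels and start at 0) against time in h, spaced evenly. Grey circles are Veh libraries, orange triangles FGF6 libraries, and lines join the means of 3. Il33 with FGF6 reached 98.3 CPM at 24 h, while Il1r1 and Il1rn with FGF6 crossed from above the Veh libraries to below them.

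The neighbouring genes of Il33 on chromosome 19 were added after the values of Il33 were seen, and 3 of them were tested. Because Il33 was selected on its own difference, its size is not set against theirs. Ranbp6 fell by 1.13 at 4 h and by 0.96 at 8 h on the log2 scale (edgeR adjusted p = 6.442e-11 and 3.366e-10). At 24 h the log2 fold change was 0.35 for Uhrf2 (adjusted p = 1.243e-10) and 0.39 for 9930021J03Rik (adjusted p = 7.533e-08), and −0.16 for Ranbp6 (adjusted p = 0.07948), all by edgeR. Trpd52l3, the nearest coding gene downstream, had 0 counts in all 18 libraries.

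Among the 6 other members that were tested, the quasi-likelihood test of edgeR, adjusted by Benjamini-Hochberg over all genes, called 4 higher and 0 lower with FGF6 at 4 h, at an adjusted p under 0.05. Over all genes, 28.6% were called higher and 34.2% lower. The 0 stood at an unadjusted p under 0.05 as well, and with limma and DESeq2. At 8 h the test called 4 members higher, against 32.4% of all genes, and 2 lower, against 38.4%. At 24 h it called 2 higher, against 35.9% of all genes, and 3 lower, against 37.9%. The median log2 fold change of these 6 was 0.83 at 4 h, 0.54 at 8 h and −0.63 at 24 h, beside −0.05, −0.05 and −0.02 over all genes tested. With so large a share of all genes called, the count of members says little, and their sizes and directions are given gene by gene.

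Il1rl1, which encodes ST2, was the most abundant member in every group and rose with FGF6 at each time. At 4 h the Veh libraries held 37126, 40134 and 37617 counts and the FGF6 libraries 142622, 168427 and 133067. The means were 1233 ± 26.6 and 5349 ± 68.3 CPM (n = 3), a log2 fold change of 2.12 ± 0.05 (SE; adjusted p = 8.123e-22 by edgeR). At 8 h the libraries held 25126, 21504 and 19858 counts with Veh and 134742, 126133 and 104887 with FGF6. The groups were far apart at both times, and the level in both arms was lower at 8 h than at 4 h. The 8 h means were 719 ± 64.4 and 4312 ± 73.4 CPM, a log2 fold change of 2.58 ± 0.05 (adjusted p = 1.055e-23 by edgeR). At 24 h the counts were 15741, 15795 and 11609 with Veh and 99845, 94901 and 91585 with FGF6. Those gave means of 505 ± 40.4 and 3464 ± 154 CPM, a log2 fold change of 2.78 ± 0.05 (adjusted p = 1.671e-24 by edgeR). The absolute level with FGF6 was therefore highest at 4 h, whereas the ratio to vehicle was highest at 24 h. Ranked by CPM per kb of exon among 15025 tested and annotated genes, Il1rl1 stood at place 25 in the FGF6 4 h group and at place 151 in the Veh 4 h group.

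Il1rap, the partner chain that ST2 and the IL-1 receptor share, rose at all 3 times too. Its counts at 4 h were 2432, 2734 and 2513 with Veh and 5624, 7244 and 5832 with FGF6. At 8 h they were 1525, 1535 and 1500 with Veh and 6339, 6369 and 5255 with FGF6. At 24 h they were 792, 966 and 656 with Veh and 4431, 4095 and 3962 with FGF6. No group overlapped its counterpart at any time. The means at 4 h were 82.4 ± 3.09 CPM with Veh and 225 ± 15.3 CPM with FGF6, and those at 24 h were 28.2 ± 0.852 and 151 ± 9.12 CPM. The log2 fold changes were 1.45 ± 0.05 at 4 h, 2.10 ± 0.05 at 8 h and 2.42 ± 0.05 at 24 h (edgeR adjusted p = 5.039e-19, 3.255e-22 and 3.847e-23). For Il1rap as for Il1rl1, the level fell over time in vehicle-treated cells, and the FGF6 level was lower at 24 h than at 4 h.

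Il1r1, the signalling receptor for IL-1α and IL-1β, rose early and fell late. At 4 h it had 7462, 7789 and 7141 counts with Veh and 12647, 15227 and 12390 with FGF6, means of 240 ± 1.83 and 485 ± 17.9 CPM. It rose by 1.01 ± 0.03 on the log2 scale at 4 h and by 0.36 ± 0.03 at 8 h (edgeR adjusted p = 7.617e-19 and 4.329e-10). At 24 h it had 6242, 7532 and 5419 counts with Veh and 4132, 4315 and 3945 with FGF6. Every FGF6 library now lay below every Veh library. The 24 h means were 225 ± 5.11 and 149.9 ± 4.73 CPM, a log2 fold change of −0.58 ± 0.03 (adjusted p = 3.21e-14 by edgeR). Vehicle cells held Il1r1 nearly level, at 240, 244 and 225 CPM over the 3 times, and the larger movement over time was in the FGF6 arm.

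Il1rn, the receptor antagonist, also passed from above Veh to below it, but unlike Il1r1 its level fell late in both arms. At 4 h it had 649, 671 and 765 counts with Veh and 948, 1128 and 823 with FGF6, and its log2 fold change was 0.64 ± 0.08 (edgeR adjusted p = 1.588e-07). At 8 h the counts were 649, 664 and 652 with Veh and 1104, 1029 and 850 with FGF6, and the log2 fold change was 0.72 ± 0.08 (edgeR adjusted p = 1.382e-08). At 24 h the counts were 154, 257 and 192 with Veh and 56, 47 and 51 with FGF6. The groups were separate at each time, with FGF6 above Veh at 4 and 8 h and below it at 24 h. The 8 h means were 21.3 ± 0.93 CPM with Veh and 35.15 ± 0.70 CPM with FGF6. The 24 h means were 7.07 ± 1.46 and 1.86 ± 0.182 CPM, a log2 fold change of −1.92 ± 0.15 (adjusted p = 2.626e-11 by edgeR).

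The remaining ligands were scarce. Il18, made as an inactive precursor that caspase-1 cleaves, had 54, 65 and 56 counts with Veh and 35, 57 and 46 with FGF6 at 4 h. Its log2 fold change there was −0.18 ± 0.19 (edgeR adjusted p = 0.4447). At 24 h it had 97, 120 and 105 counts with Veh and 36, 37 and 34 with FGF6. The 4 h groups overlapped and the 24 h groups did not. Il18 fell with FGF6 by 0.75 ± 0.20 on the log2 scale at 8 h (edgeR adjusted p = 0.001734) and by 1.55 ± 0.19 at 24 h (edgeR adjusted p = 4.228e-08). Il1a held 1 to 16 counts per library, near the floor. At 8 h it had 14, 11 and 11 counts with Veh and 6, 3 and 4 with FGF6, which is a log2 fold change of −1.32 ± 0.46 (adjusted p = 0.01287 by edgeR) that lost its call without FGF6 8 h library 2 (−1.08, edgeR adjusted p = 0.06875). The Il1a value was −0.02 ± 0.36 at 4 h and −0.68 ± 0.52 at 24 h (edgeR adjusted p = 0.9731 and 0.2495). Without FGF6 24 h library 2, which held 8 counts against 3 and 1 in the other two, the 24 h value was −1.62 (edgeR adjusted p = 0.02611). Il1b, a product of activated myeloid cells, had 2 counts in 1 FGF6 8 h library and 0 in the other 17 libraries.

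**Figure D2:**
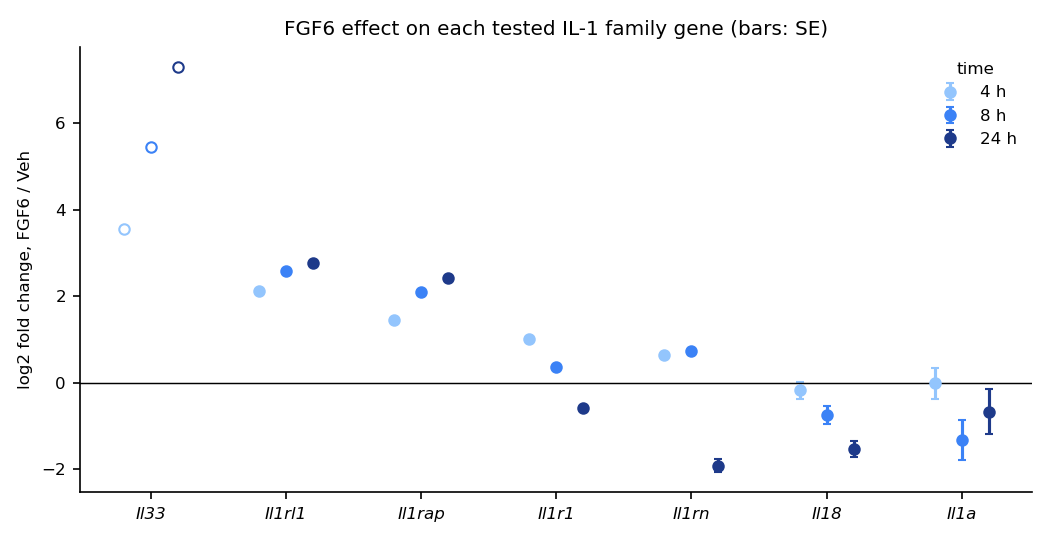
Log2 fold change of FGF6 over Veh (y axis) at 4, 8 and 24 h for the 7 genes that passed the filter, with SE bars from edgeR, which are smaller than the points for most genes. Open circles are Il33, shown without an error because it was selected on this contrast. Il33, Il1rl1 and Il1rap lie above 0 at all times, whereas Il1r1 and Il1rn pass from above 0 to below it at 24 h.

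Whether the FGF6 effect itself differed between times was tested as an interaction. Between 4 h and 8 h edgeR called 3 of the 6 members, beside 30.6% of all genes. Between 8 h and 24 h it called 5, beside 45.1%, and between 4 h and 24 h it called 5, beside 53.5%. From 4 h to 24 h the effect on Il1rl1 grew by 0.66 ± 0.07 and that on Il1rap by 0.97 ± 0.07 on the log2 scale (edgeR adjusted p = 6.42e-09 and 8.517e-12). Over the same interval the effect moved by −1.60 ± 0.05 for Il1r1, by −2.55 ± 0.17 for Il1rn and by −1.37 ± 0.27 for Il18 (edgeR adjusted p = 2.503e-19, 3.696e-12 and 0.0001214). The effect thus moved upward for the ST2 receptor pair and downward for Il1r1, its antagonist and Il18. These are changes of a ratio, and either arm can move it. For Il1rl1 and Il1rap the level was lower at 24 h than at 4 h in both arms. For Il18 the Veh mean was 1.88 CPM at 4 h and 3.81 CPM at 24 h, and the FGF6 mean 1.66 and 1.29 CPM. The change of Il1rn came between 8 h and 24 h (−2.64 ± 0.17, edgeR adjusted p = 3.872e-12), while its 4 h to 8 h difference was 0.09 ± 0.11 (edgeR adjusted p = 0.6199). For Il1a no interaction passed the threshold, and its differences had SEs of 0.59 to 0.72. Il33, without a test, differed by 1.90 between 4 h and 8 h and by 1.85 between 8 h and 24 h.

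The growth of the Il1rl1 effect between 8 h and 24 h was small, at 0.19 ± 0.07 (edgeR adjusted p = 0.02115). DESeq2 gave 0.17 with an adjusted p of 0.1065, and a filter of at least 10 counts in every library gave 0.16 (edgeR adjusted p = 0.06051). Its call was also lost without Veh 8 h library 1 (0.12), Veh 24 h library 2 (0.15), Veh 24 h library 3 (0.17) or FGF6 24 h library 1 (0.16). The Il18 change in the same interval, −0.80 ± 0.28 (edgeR adjusted p = 0.02119), lost its call without Veh 8 h library 1 (−0.69), FGF6 8 h library 1 (−0.60) or Veh 24 h library 3 (−0.69). The number of members called between 8 h and 24 h was 3 without Veh 8 h library 1 and 3 without Veh 24 h library 3.

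In vehicle-treated cells the members also moved with time, and the comparison of Veh 24 h with Veh 4 h shares its libraries with those above. It called all 6 tested members, 5 lower and 1 higher at 24 h, beside 60.8% of all genes. Of all 15071 genes tested, 4514 were called lower and 4651 higher. Il1rl1 fell by 1.29 ± 0.05 on the log2 scale, Il1rap fell by 1.55 ± 0.05 and Il1rn fell by 1.67 ± 0.10 (edgeR adjusted p = 3.373e-17, 4.959e-18 and 2.166e-13). Il1r1 fell by 0.10 ± 0.03 (edgeR adjusted p = 0.01271). Il18 rose by 1.01 ± 0.17 (edgeR adjusted p = 1.503e-05). Il1a fell by 0.97 ± 0.41 (edgeR adjusted p = 0.04382), a call lost with DESeq2 (adjusted p = 0.09835), with no filter on low counts (0.1138), and without any of 5 libraries (0.0673 to 0.1567). Those libraries were Veh 4 h 1, 2 and 3 and Veh 24 h 2 and 3. Il33 in vehicle cells differed by −1.91 on the log2 scale, with no overlap between the Veh 4 h and Veh 24 h libraries.

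Per length, the order of the 8 genes changed with FGF6. In the Veh 24 h group, the mean level in CPM per kb of exon was 73.3 ± 5.86 for Il1rl1, 35.3 ± 0.803 for Il1r1, 3.70 ± 0.519 for Il18 and 2.48 ± 0.0750 for Il1rap. It was 1.28 ± 0.264 for Il1rn, 0.216 ± 0.0147 for Il33 and 0.119 ± 0.0358 for Il1a. Il33 thus ranked above only Il1a and Il1b in these cells. In the FGF6 24 h group it was second, at 34.1 ± 2.03 CPM per kb, behind Il1rl1 at 502 ± 22.4. Il1r1 followed at 23.6 ± 0.744, Il1rap at 13.3 ± 0.803, Il18 at 1.26 ± 0.0392, Il1rn at 0.337 ± 0.0329 and Il1a at 0.0729 ± 0.0649. No 2 neighbours in either order overlapped.

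Il1rl1 and Il1r1 belong to a cluster of receptor genes on chromosome 1. In chromosomal order the genes are Il1r2, Il1r1, Il1rl2, Il1rl1, Il18r1 and Il18rap, all on the plus strand, from chr1:40074079 to chr1:40551705. At 24 h the first 3 were called lower with FGF6 and the last 3 higher, beside 37.9% and 35.9% of all genes. With shares that large, the split by position says little, and Il1r2 and Il18r1 had at most 27 counts in any library. At 4 h and 8 h no gene of the cluster was called lower. Il1r2, which encodes a decoy that binds IL-1 without signalling, had 17, 27 and 15 counts with Veh and 1, 1 and 0 with FGF6 at 24 h. Against the floor of 3 counts per library it was at least 6.18-fold lower (edgeR adjusted p = 2.11e-06). Il1r2 differed little at 4 h (0.51 ± 0.42 on the log2 scale) and at 8 h (0.08 ± 0.44), where the test did not call it. Without Veh 4 h library 3, which held 21 counts against 9 and 6, its 4 h value was 1.21 (edgeR adjusted p = 0.02642).

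Il1rl2, the receptor subunit for the IL-36 cytokines, had the course of Il1r1. It had 338, 418 and 285 counts with Veh and 156, 130 and 128 with FGF6 at 24 h. Its log2 fold changes were 1.10 ± 0.06 at 4 h, 0.40 ± 0.07 at 8 h and −1.28 ± 0.09 at 24 h (edgeR adjusted p = 2.607e-14, 1.088e-05 and 6.246e-13). Il18rap, the accessory chain of the IL-18 receptor, had 289, 271 and 214 counts with Veh and 2163, 2280 and 2026 with FGF6 at 24 h. It rose by 1.73 ± 0.08, 2.55 ± 0.08 and 3.11 ± 0.06 on the log2 scale at 4, 8 and 24 h (edgeR adjusted p = 2.797e-16, 4.931e-20 and 1.514e-23). Its partner Il18r1, the chain that binds IL-18, stayed at 1 to 27 counts per library. At 24 h Il18r1 had 5, 2 and 1 counts with Veh and 22, 16 and 15 with FGF6, which is a log2 fold change of 2.72 ± 0.61 (adjusted p = 0.0003185 by edgeR). Its 4 h call, at 1.65 ± 0.55 (edgeR adjusted p = 0.01083), was lost without FGF6 4 h library 3 (0.85) or Veh 4 h library 3 (1.40), and its 8 h call at 1.62 ± 0.53 without FGF6 8 h library 1 (1.19). Per kb of exon, the accessory chain stood at 11.6 ± 0.532 CPM and the binding chain at 0.133 ± 0.0290 CPM with FGF6 at 24 h.

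The genes that flank the cluster were added after its values were seen. Map4k4, before Il1r2, rose by 0.76, 0.81 and 0.39 on the log2 scale at 4, 8 and 24 h (edgeR adjusted p = 3.004e-16, 4.54e-17 and 7.845e-11), with no fall at 24 h. Slc9a4, after Il18rap, had at most 42 counts and rose by 2.71 at 24 h (edgeR adjusted p = 1.413e-05), the direction of the 3 receptor genes next to it. Whether genes at this position differ as a block was not tested.

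**Figure D3:**
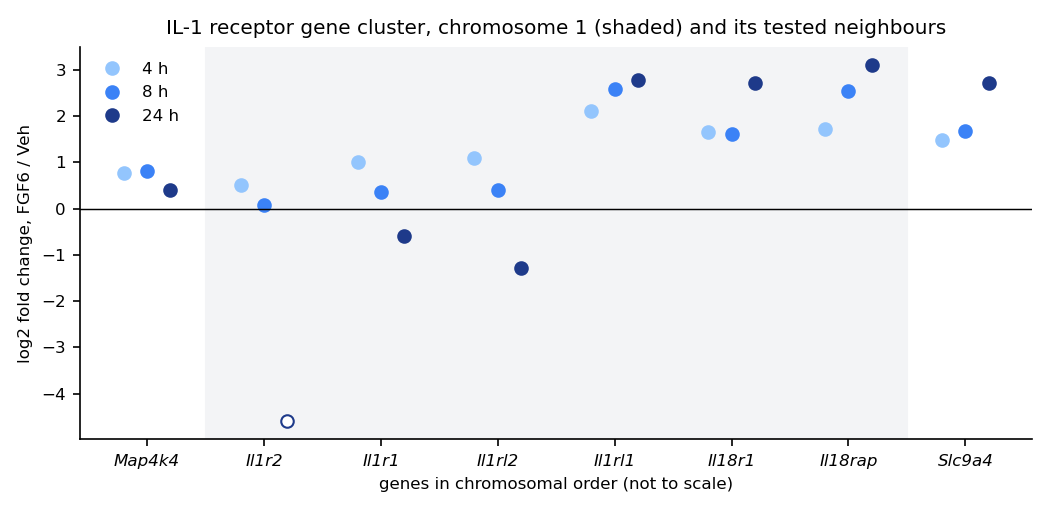
Log2 fold change of FGF6 over Veh (y axis) at 4, 8 and 24 h for the 6 receptor genes of the chromosome 1 cluster (shaded) and its tested neighbours, in chromosomal order and not to scale. The open circle is a fitted value against at most 1 count per library (Il1r2 at 24 h) and is no estimate of size. At 24 h the points from Il1r2 to Il1rl2 lie below 0 and those from Il1rl1 to Slc9a4 above it.

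Across the wider pathway, 88 genes were listed as ligands, receptors, signalling components, processing and release factors or response genes, and 64 of them were tested with Il33 left out. By edgeR, 29 of them rose and 16 fell at 4 h, 26 rose and 30 fell at 8 h, and 23 rose and 33 fell at 24 h. Those are 45.3% and 25.0% of the 64 at 4 h, beside 28.6% and 34.2% of all genes, 40.6% and 46.9% at 8 h, beside 32.4% and 38.4%, and 35.9% and 51.6% at 24 h, beside 35.9% and 37.9%. The share that rose at 24 h was thus that of all genes. Scaled by library size alone, the 4 h split was 23 higher and 21 lower. That scaling took the share of higher calls among all called genes at 4 h from 45.5% to 33.3%. It moved the same share for the interaction between 4 h and 24 h from 52.9% to 63.3%, with the family count still at 5. The median log2 fold change over the 64 was 0.04, −0.03 and −0.31 at the 3 times, and the same with genes set to their bound.

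Of the 10 ligand genes, 6 stayed at or below 3 counts in every library: Il1b, Il1f5, Il1f6, Il1f8, Il1f9 and Il1f10. Of the 11 receptors and binding proteins, Il1rapl1 and Il1rapl2 did so, and 9 were tested. Of these, 7 were higher and 1 lower at 4 h, 6 higher and 1 lower at 8 h, and 5 higher and 4 lower at 24 h. The higher shares were 77.8%, 66.7% and 55.6%, beside 28.6%, 32.4% and 35.9% of all genes, and the lower shares 11.1%, 11.1% and 44.4%, beside 34.2%, 38.4% and 37.9%. The median log2 fold change was 1.10, 0.40 and 2.06, beside −0.05, −0.05 and −0.02 over all genes tested. At 24 h the 9 values lay well to either side of 0, and the median was the value of Sigirr, so it describes no typical receptor. Sigirr, an inhibitory receptor of the family, had 6, 12 and 3 counts with Veh and 39, 17 and 29 with FGF6 at 24 h. It rose by 2.06 ± 0.44 on the log2 scale at 24 h (edgeR adjusted p = 0.0001815). At 4 h and 8 h it had at most 5 counts with FGF6, and its values of −1.68 ± 0.68 and −1.74 ± 0.64 (edgeR adjusted p = 0.03575 and 0.01895) lost their calls without any of 4 libraries at 4 h (Veh 1 and 3, FGF6 2 and 3, −1.70 to −1.22) and of 3 libraries at 8 h (Veh 1, FGF6 1 and 3, −1.63 to −1.26). Over all libraries left out in turn, the Sigirr value ran from −2.80 to −1.22 at 4 h and from −2.12 to −1.26 at 8 h.

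The adaptors and kinases that act below these receptors were all measured. Of 21 signalling genes, 7 were higher and 8 lower at 4 h, 7 and 11 at 8 h, and 10 and 9 at 24 h, with a median of −0.04, −0.10 and −0.03. At 4 h these counts are 33.3% and 38.1% of the list, near the 28.6% and 34.2% of all genes. At 8 h they are 33.3% and 52.4%, beside 32.4% and 38.4%, and at 24 h 47.6% and 42.9%, beside 35.9% and 37.9%. The 5 with the largest differences at 24 h were all lower with FGF6. Myd88, the adaptor that all signalling receptors of the family recruit, had 1934, 2480 and 1783 counts with Veh and 858, 869 and 843 with FGF6 at 24 h. Its log2 fold change was −0.04 ± 0.08 at 4 h (edgeR adjusted p = 0.6518), −0.72 ± 0.08 at 8 h and −1.22 ± 0.08 at 24 h (edgeR adjusted p = 7.824e-09 and 6.038e-13). Irak3, a kinase-like inhibitor of the pathway, fell by 1.22 ± 0.06, 1.93 ± 0.07 and 2.09 ± 0.07 on the log2 scale at 4, 8 and 24 h (edgeR adjusted p = 1.703e-14, 1.132e-18 and 7.645e-19). Its level at 24 h was 25.9 ± 0.505 CPM with Veh and 6.06 ± 0.453 CPM with FGF6. The ubiquitin ligase gene Peli3 fell by 2.06 ± 0.11 and its relative Peli2 by 1.17 ± 0.04 at 24 h (edgeR adjusted p = 8.404e-15 and 4.916e-18). At 4 h Peli3 already stood at −1.72 and Peli2 at −0.35. Tifa, a TRAF6-binding adaptor, fell by 1.03, 1.58 and 1.59 at the 3 times (edgeR adjusted p = 3.471e-12, 1.158e-15 and 3.349e-16).

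Machinery that cleaves and releases IL-1 family cytokines was thinly represented. Of 24 listed genes, 7 stayed at or below 3 counts in every library (Nlrp1a, Nlrp1b, Nlrc4, Ctsg, Elane, Tpsab1 and Tpsb2), 11 were tested, and the inflammasome genes Casp1, Pycard, Nlrp3 and Aim2 did not pass the filter. At 24 h 3 of the 11 were higher and 5 lower, with a median of −0.07. At 4 h the split was 5 and 2, and at 8 h 4 and 6. The higher shares were 45.5%, 36.4% and 27.3% at 4, 8 and 24 h, beside 28.6%, 32.4% and 35.9% of all genes, and the lower shares 18.2%, 54.5% and 45.5%, beside 34.2%, 38.4% and 37.9%. Casp4, the sensor of intracellular lipopolysaccharide, had 141, 142 and 150 counts with Veh and 37, 40 and 35 with FGF6 at 24 h, a fall of 1.92 ± 0.25 on the log2 scale (edgeR adjusted p = 1.712e-07). Gsdmd, the pore-forming gasdermin D, fell by 1.03 ± 0.10 at 24 h (edgeR adjusted p = 2.251e-09). At 4 h the values were −0.42 for Casp4 (edgeR adjusted p = 0.1231) and −0.05 for Gsdmd (0.655), and at 8 h −1.49 and −0.27 (edgeR adjusted p = 4.502e-06 and 0.01216). The 8 h call of Gsdmd was lost without Veh 8 h library 2 (−0.22) or FGF6 8 h library 2 (−0.19). Casp4 was called at 4 h without FGF6 4 h library 2 (−0.69, edgeR adjusted p = 0.03105) and with no filter on low counts (−0.42, edgeR adjusted p = 0.04122).

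Genes known to respond to IL-1 in stromal cells went both ways and further apart with time. Of 22 listed, 20 were tested. At 4 h 9 were higher and 5 lower, at 8 h 8 and 10, and at 24 h 5 and 13, with a median log2 fold change of 0.04, −0.15 and −1.40. The higher shares were 45.0%, 40.0% and 25.0%, beside 28.6%, 32.4% and 35.9% of all genes, and the lower shares 25.0%, 50% and 65.0%, beside 34.2%, 38.4% and 37.9%. At 24 h 17 of the 20, beside 22.3% of all genes, passed the threshold with a log2 fold change of at least 1 in either direction and no overlap, and the 6 with the largest difference were 3 higher and 3 lower.

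Among those higher was Lif, a cytokine of the IL-6 family, with 49, 43 and 53 counts with Veh and 1445, 1157 and 1127 with FGF6 at 24 h. Lif rose by 3.63 ± 0.12, 4.09 ± 0.14 and 4.73 ± 0.14 on the log2 scale at 4, 8 and 24 h (adjusted p = 2.199e-18, 8.557e-19 and 1.882e-20 by edgeR). Mmp3, the matrix protease stromelysin-1, had 8, 4 and 4 counts with Veh and 362, 302 and 255 with FGF6 at 24 h. Mmp3 rose by 1.93 ± 0.20, 2.69 ± 0.20 and 5.86 ± 0.22 (edgeR adjusted p = 8.603e-09, 8.373e-12 and 7.372e-18). Csf3, which encodes the granulocyte growth factor G-CSF, had 2, 1 and 0 counts with Veh and 25, 32 and 15 with FGF6 at 24 h. Against the floor of 3 counts per library it was at least 15.5-fold higher at 4 h and at least 6.89-fold higher at 24 h (edgeR adjusted p = 1.095e-09 and 8.916e-08), and it rose by 1.88 ± 0.41 at 8 h (edgeR adjusted p = 0.0002612).

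Among those lower was Saa3, an acute-phase protein gene of stromal and fat cells, with 6835, 5274 and 3477 counts with Veh and 54, 58 and 116 with FGF6 at 24 h. Its log2 fold change was 0.02 ± 0.12 at 4 h (edgeR adjusted p = 0.8838), −0.79 ± 0.12 at 8 h and −6.04 ± 0.19 at 24 h (edgeR adjusted p = 2.792e-06 and 9.31e-20). Vcam1, the vascular cell adhesion molecule, had 12334, 15171 and 11372 counts with Veh and 894, 870 and 936 with FGF6 at 24 h. It fell by 0.33 ± 0.06, 1.30 ± 0.06 and 3.80 ± 0.06 on the log2 scale (edgeR adjusted p = 1.863e-05, 1.942e-16 and 3.978e-25). Nos2, the inducible nitric oxide synthase, had 238, 269 and 225 counts with Veh and 14, 19 and 17 with FGF6 at 24 h, with log2 fold changes of −1.71 ± 0.17, −4.37 ± 0.25 and −3.82 ± 0.20 at 4, 8 and 24 h (edgeR adjusted p = 4.222e-09, 2.778e-14 and 4.281e-15). Of these 6 response genes, 3 stood far above vehicle and 3 far below it in the same libraries in which Il33 was highest.

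**Figure D4:**
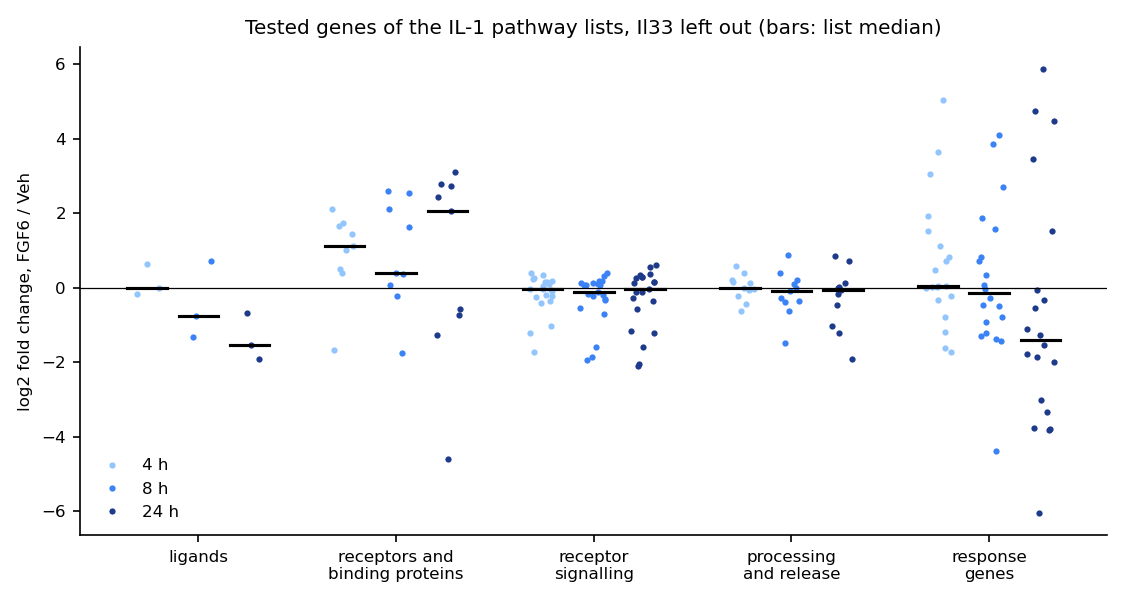
Log2 fold change of FGF6 over Veh (y axis) at 4, 8 and 24 h for each tested gene of the 5 pathway lists, Il33 left out, with black bars at the list medians (Il1r2 at 24 h and Csf3 at 4 and 24 h are fitted against groups of at most 3 counts). Response genes spread from −6.04 (Saa3) to 5.86 (Mmp3) at 24 h around a median of −1.40, while signalling genes stay near 0 except for a lower group.

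Markers of other cells moved alongside these genes, and their part in the results was not tested. The 14 immune markers summed to 14.8 to 15.8 CPM in Veh and 18.1 to 19.3 CPM in FGF6 libraries at 4 h, to 11.4 to 13.1 and 11.0 to 11.6 CPM at 8 h, and to 7.81 to 8.76 and 3.47 to 4.07 CPM at 24 h. Ptprc, Adgre1, Itgam and Cd3e had at most 3 counts in every library. The 3 immune markers that were tested, Cd68, Csf1r and Lyz2, were expressed, and all were lower with FGF6 at 24 h. Their log2 fold changes there were −0.85, −1.77 and −4.52 (edgeR adjusted p = 6.23e-08, 6.015e-05 and 8.882e-08). At 4 h Cd68 was higher (0.58), Csf1r was lower (−1.38) and Lyz2 was not called. The 6 endothelial markers, of which Emcn was at or below 3 counts throughout, summed to 2.21 to 3.24 CPM with Veh and 2.92 to 3.95 CPM with FGF6 at 4 h, to 1.61 to 2.26 and 3.16 to 4.85 CPM at 8 h, and to 1.66 to 2.14 and 4.55 to 6.16 CPM at 24 h. Of the 3 endothelial markers tested, edgeR called 1 higher and 0 lower at 24 h, beside 35.9% and 37.9% of all genes. That was Cdh5 (log2 fold change 5.84), whereas Kdr (0.39) and Vwf (0.0004) were not called. The 6 epithelial markers, of which Krt14 was at or below 3 counts throughout, summed to 0.422 to 0.804 and 1.75 to 2.11 CPM at 4 h, to 0.158 to 0.240 and 0.879 to 1.78 CPM at 8 h, and to 0.168 to 0.526 and 1.57 to 2.72 CPM at 24 h. Only 2 of the 6, Krt8 and Krt18, passed the filter on low counts. Both were called higher by edgeR at 4, 8 and 24 h, beside 28.6%, 32.4% and 35.9% of all genes. The 8 mature adipocyte markers summed to 102 to 107 and 89.2 to 97.7 CPM at 4 h, to 96.5 to 99.8 and 68.5 to 72.6 CPM at 8 h, and to 156 to 178 and 64.1 to 70.8 CPM at 24 h, with Lep and Cidea at or below 3 counts in every library. The sum does not describe each of these markers. Of the 5 that were tested, edgeR called 1 higher and 4 lower at 24 h, beside 35.9% and 37.9% of all genes.

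The genes with a profile most like that of Il33 were found by Pearson's r of log2 CPM over the 18 libraries, among 12298 genes with a mean of at least 1 CPM. The 18 points share 6 groups, so r mainly describes the pattern of the group means, and no test was made. The highest was Alcam, a cell adhesion molecule, at r = 0.9978, with 6.78 CPM in the Veh 24 h group and 159 CPM in the FGF6 24 h group. Its folds were 4.92, 10.6 and 23.5 at 4, 8 and 24 h. Also high were Cct3 (0.9963), Jam2 (0.9961), Mmd (0.9953) and Cct5 (0.9951). Like Il33, each of these 5 had a larger ratio to vehicle at each later time, but the size differed widely. The 24 h fold was 6.30 for Jam2 and 5.17 for Mmd, and 1.89 and 1.76 for the chaperonin subunits Cct3 and Cct5, against 157 for Il33. Among the members, r with Il33 was 0.938 for Il1rl1 (place 618), 0.905 for Il1rap (place 1000), 0.063 for Il1r1, −0.185 for Il1rn and −0.801 for Il18.

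**Figure D5:**
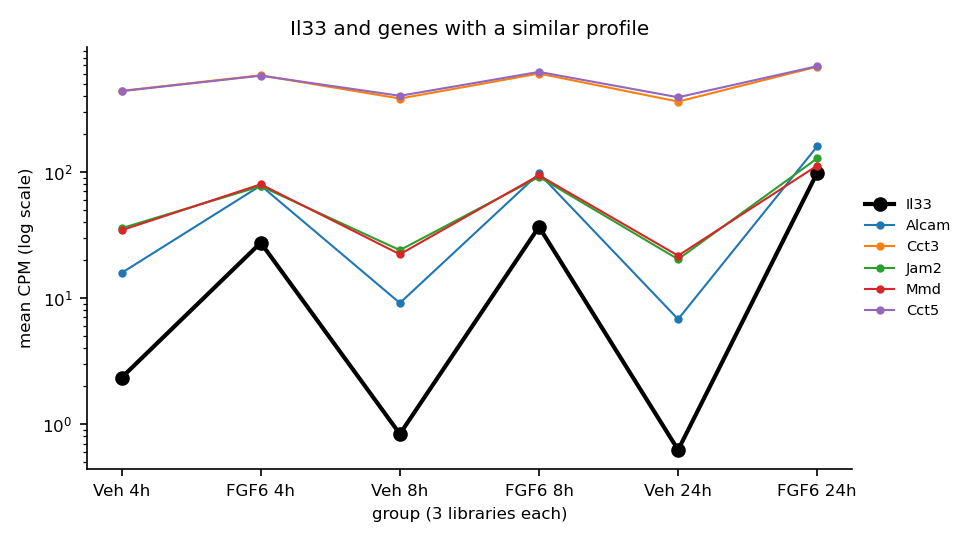
Mean CPM (log axis) in the 6 groups for Il33 (black) and 5 genes among those with the highest correlation with it over 18 libraries, which were chosen by that likeness. All 6 lines peak in the FGF6 24 h group, where Il33 stood at 98.3 CPM and Alcam at 159 CPM, and only Il33 falls below 1 CPM in a vehicle group.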

How the data were processed

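Total RNA of immortalized mouse brown preadipocytes was sequenced after vehicle or FGF6, as the study describes. The labels give the treatment, the time of 4, 8 or 24 h and a replicate number, with 3 libraries in each of 6 groups. The authors aligned reads to GRCm38 with STAR and counted them per gene with featureCounts of Subread (versions not given in the sources used here), and deposited whole-number counts for 48023 Ensembl IDs in 18 columns, of which 98.5% matched GENCODE M21. The values were not normalized, and library totals ranged from 24327816 to 33471980.

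Genes were filtered with filterByExpr over the 6 groups and scaled by TMM. All 18 libraries entered a single edgeR 4.0.16 quasi-likelihood fit (R 4.3.3) with no covariate, and p-values were adjusted by Benjamini-Hochberg over all 15071 genes tested, called at 0.05. The SE of a log2 fold change is its size over the square root of F. The study used limma with voom and a threshold of 0.25, tried here as alternatives (limma 3.58.1), as were DESeq2 1.42.0, other scalings and filters, only the compared groups, a replicate block and leaving out each library in turn. Scripts were tested on simulated counts. Library pairs within groups differed by more than counting noise (smallest chi-square per degree of freedom 2.44), so each was counted.

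The 8 members and the gene lists were chosen with earlier results of these data known. Genes outside the 8 were named where, at 24 h, they passed 0.05 with an absolute log2 fold change of at least 1 and no overlap between groups, at most 6 per list by size. Genes at or below 3 counts in all libraries were named as such, and the 6 genes most like Il33 were taken by correlation of log2 CPM (prior count 2). Of the genes these rules name, 2 are not reported here. Levels between genes are per kb of annotated exon. The same-numbered libraries were checked for pairing, and correlations of their deviations ran from −0.0275 to 0.0486 over 9 pairs, so the numbers were not treated as pairs.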

Additional observations from a re-analysis of the deposited data

Results flagged for a closer look

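The FGF6 effect differed between time points, by the interaction term of the edgeR fit, for 5 of the 6 members tested. All values are the later log2 fold change minus the earlier. Between 4 h and 8 h the difference was 0.47 for Il1rl1, 0.65 for Il1rap and −0.65 for Il1r1 (edgeR adjusted p = 6.908e-06, 4.163e-08 and 1.143e-10). Between 8 h and 24 h it was 0.19 for Il1rl1, 0.32 for Il1rap and −0.94 for Il1r1 (edgeR adjusted p = 0.02115, 0.0005253 and 1.765e-14). In the same interval it was −2.64 for Il1rn and −0.80 for Il18 (edgeR adjusted p = 3.872e-12 and 0.02119). Between 4 h and 24 h it was 0.66 for Il1rl1, 0.97 for Il1rap and −1.60 for Il1r1 (edgeR adjusted p = 6.42e-09, 8.517e-12 and 2.503e-19). It was −2.55 for Il1rn and −1.37 for Il18 (edgeR adjusted p = 3.696e-12 and 0.0001214). The Il18 mean was 2.04 CPM with Veh and 1.20 CPM with FGF6 at 8 h, and 3.81 and 1.29 CPM at 24 h. The 8 h to 24 h calls of Il1rl1 and Il18 did not hold throughout. That of Il1rl1 was lost with DESeq2 (adjusted p = 0.1065), with at least 10 counts in every library and without any of 4 single libraries (Veh 8 h 1, Veh 24 h 2 and 3, FGF6 24 h 1, 0.12 to 0.17). That of Il18 was lost without any of 3 libraries (Veh 8 h 1, FGF6 8 h 1, Veh 24 h 3, −0.69 to −0.60). The direction of the FGF6 effect itself turned for Il1r1 and Il1rn alone among these genes. Groups of 3 libraries are too small for a search for single outlying samples.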

How the results depend on the processing

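Every alternative was planned. The 10 counts of called members or pathway genes stayed within 1.5 times the main count in 165 of 168 alternatives. The exceptions were 5 members called between 4 h and 8 h at a threshold of 0.25, and 3 members called between 8 h and 24 h without Veh 8 h library 1 or Veh 24 h library 3. Leaving out each library in turn, the members called numbered 4 to 4 at 4 h, 5 to 6 at 8 h and 5 to 6 at 24 h. They numbered 3 to 3, 3 to 5 and 5 to 5 for the interactions of 4 h with 8 h, 8 h with 24 h and 4 h with 24 h, and 5 to 6 for vehicle over time. The pathway genes called numbered 41 to 45, 52 to 55 and 55 to 57 at the 3 times.

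A fit with the replicate block called 4, 6 and 5 members at 4, 8 and 24 h and 46, 56 and 57 pathway genes. It ended the call of Il1a in vehicle cells over time (adjusted p = 0.05027) and no other call of a member. Il33 stood at 3.44 to 3.69 on the log2 scale at 4 h, 5.41 to 5.49 at 8 h and 7.30 to 7.39 at 24 h when a library was left out. It kept its direction under every alternative run, which adds no support because it was selected on this contrast in the same libraries.

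Among single genes the sign turned only for values that were not called. Il1a at 4 h was 0.0026 with DESeq2, 0.021 with only the groups compared and −0.093 to 0.075 when 1 library was left out. Saa3 at 4 h was −0.078 with library sizes alone, −0.034 with upper-quartile factors and −0.017 to 0.12 when 1 library was left out. Leaving out 1 library gave −0.015 to 0.14 for Il1rn between 4 h and 8 h, −0.30 to 1.09 for Il1a between 8 h and 24 h, −0.14 to 0.35 for Il1r2 at 8 h, −0.15 to 0.036 for Myd88 at 4 h and −0.17 to 0.071 for Gsdmd at 4 h. The cause was not tested. Library sizes alone shifted the median of all genes at 4 h by −0.10. Depth limits Il1a, Il1b, Il18r1, Il1r2 and Sigirr, with at most 39 counts in any library.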

Other observations

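Il18bp, the secreted protein that binds IL-18 and blocks it, was the only other tested gene of the receptor list and was singled out after its values were seen. At 4 h it had 120, 138 and 119 counts with Veh and 172, 141 and 130 with FGF6. At 24 h it had 85, 143 and 83 counts with Veh and 67, 58 and 55 with FGF6. Like Il1r1 and Il1rl2 it lay higher with FGF6 at 4 h and lower at 24 h. Its log2 fold change was 0.41 ± 0.14 at 4 h (edgeR adjusted p = 0.01224), −0.24 ± 0.14 at 8 h (0.1453) and −0.73 ± 0.16 at 24 h (0.0002303). The 4 h call was lost without FGF6 4 h library 1 (0.29) and with library sizes alone (0.30).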
